A study of Mus musculus with 24 samples.

Results

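In lacrimal glands of mice with Sjögren syndrome-like disease, 12 of 17440 CodeLink probes read clearly above background in every NOD array and near 0 in every MRL/lpr array. The probes were selected on these readings themselves: a value above 4 in all 6 NOD arrays and below 1 in all 6 MRL/lpr arrays. The rule held for 0.0688% of the probes of the array, and in the opposite direction for 6 probes. In the array annotation 9 of the 12 probes carry 1 gene symbol each: H2-Bl, H2-Ab1, Zfp979, Mrpl27, Slc17a2, Rpp21, Mmut, 1110059E24Rik and Mbtd1. The other 3, probes 14702, 17506 and 6541, are unnamed here.

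The tissue was exorbital lacrimal gland of adult mice, collected after disease onset. MRL/lpr is MRL/MpJ-Tnfrsf6lpr, a strain in which a mutation of the death receptor gene Fas leads to lymphoproliferation, and NOD is nonobese diabetic/LtJ, an inbred strain prone to autoimmune diabetes. Both strains develop lacrimal gland inflammation. Female and male mice of each strain formed 4 groups of 3 RNA samples, each a pool of glands from 5 to 8 mice by the labels. By the methods of the study, each pool was hybridised to a CodeLink bioarray and to an Affymetrix 430A array. This gave 12 arrays per platform, and the pools are the replicates throughout. The labels of the CodeLink samples add the word placebo, an agent that the methods of the study do not mention. No group differed by a gene or a treatment alone, since the whole genome separates the strains.

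A CodeLink probe is a single oligonucleotide with 1 spot on the array. An Affymetrix probe set reads the same transcript with several short oligonucleotides. On either platform a probe reports both how much transcript is present and how well the transcript matches the probe, and the strains carry different sequences at many genes. The major histocompatibility complex (MHC), which encodes the proteins that present peptides to T cells, is highly variable between inbred strains. Probe sequences were not used here, so the match of any probe to either strain's transcript was not tested.

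On CodeLink, a spot is marked by the image software as good or as not above background. In NOD glands, all 72 spots of the 12 probes were marked good. In MRL/lpr glands, 69 of the 72 spots were marked as not above background, and for 10 of the 12 probes this held in all 6 arrays. Before normalization, the raw intensities lay between 58.8 and 2404 in NOD and between -1.33 and 24.04 in MRL/lpr. For the 10 probes at background throughout, the NOD level was at least 9.15-fold (probe 6541) to at least 58.4-fold (H2-Bl) higher. These bounds set each MRL/lpr array at the lowest value of a spot marked good there or at the probe's own value, whichever was higher. The strain difference on CodeLink is what chose the probes, so it is a description and no test of it is given.

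**Figure D1:**
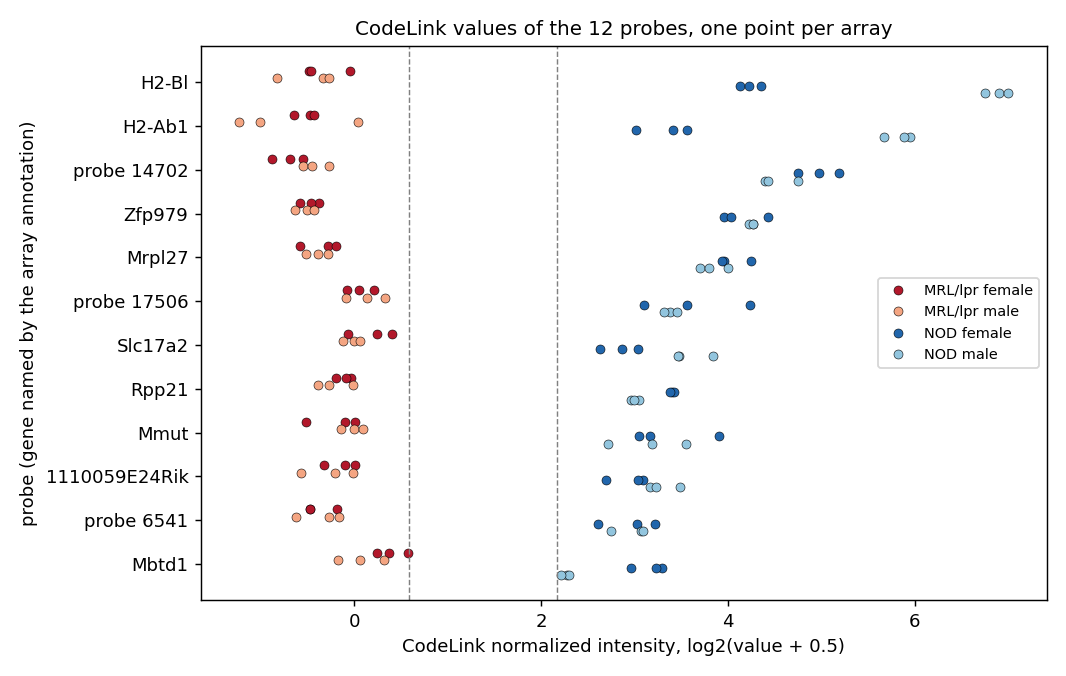
Normalized CodeLink intensity of the 12 probes as log2(value + 0.5), with 1 point for each array and colours for the 4 groups; dashed lines mark the values 1 and 4 of the selection rule. Every MRL/lpr point lies left of the lower line and every NOD point right of the upper line. The NOD sexes lie furthest apart for H2-Bl, H2-Ab1 and Mbtd1.

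Of the 9 named genes, 3 lie in the MHC. H2-Ab1 encodes the beta chain of the class II molecule I-A, which presents peptides to CD4 T cells. In MRL/lpr its CodeLink values were 0.137, 0.219 and 0.241 in females and -0.074, 0.526 and -0.003 in males. In NOD they were 11.3, 10.2 and 7.58 in females and 50.6, 61.3 and 58.7 in males. The NOD males were highest, the NOD females intermediate and the MRL/lpr sexes overlapped around 0. The NOD level was at least 29.2-fold higher.

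H2-Bl is a class I-like locus that RefSeq lists as a transcribed pseudogene. Class I genes form a family of near-identical copies, and which of them the probe reads is uncertain. Its CodeLink values in MRL/lpr were 0.216, 0.224 and 0.470 in females and 0.061, 0.289 and 0.326 in males. In NOD they were 16.98, 18.1 and 19.9 in females and 120, 107 and 127 in males. The order of the groups was the one seen for H2-Ab1, with no overlap between the NOD sexes.

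Rpp21, which encodes a protein subunit of the tRNA-processing enzyme ribonuclease P, read 0.474, 0.436 and 0.369 in MRL/lpr females. The MRL/lpr males read 0.264, 0.489 and 0.326. The NOD values were 10.1, 10.2 and 9.89 in females and 7.31, 7.76 and 7.48 in males. All 3 NOD females lay above all 3 NOD males, and the NOD level was at least 10.9-fold that of MRL/lpr. Mmut encodes methylmalonyl-CoA mutase, the mitochondrial enzyme that forms succinyl-CoA. It read 0.199 to 0.564 over the MRL/lpr arrays. In NOD it read 14.5, 7.78 and 8.44 in females and 8.62, 6.04 and 11.3 in males, and the sexes overlapped. The bound for Mmut was at least 11.4-fold.

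Mrpl27 and Mbtd1 lie near each other on chromosome 11. Mrpl27, a protein of the large subunit of the mitochondrial ribosome, read 0.168 to 0.370 in MRL/lpr. In NOD it read 15.1, 14.9 and 18.5 in females and 15.6, 12.5 and 13.4 in males. The sexes overlapped, and the NOD level was at least 18.7-fold higher. Mbtd1, a chromatin protein with MBT repeats, came nearest to both limits of the rule. Its MRL/lpr values were 0.792, 0.991 and 0.683 in females and 0.384, 0.748 and 0.541 in males, and only 4 of these 6 spots were marked as not above background. Its NOD values were 9.32, 8.85 and 7.29 in females and 4.35, 4.40 and 4.15 in males. The NOD mean over the MRL/lpr mean was 9.27, which is no bound.

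Slc17a2, a solute carrier of the family of sodium-dependent phosphate transporters, was just above background in 1 MRL/lpr array, a female pool at 0.818, and lay between 0.418 and 0.684 in the others. In NOD it read 5.68, 7.70 and 6.76 in females and 10.7, 10.53 and 13.8 in males. The males lay above the females. 1110059E24Rik, a RIKEN cDNA gene, read 0.172 to 0.502 in MRL/lpr. Its NOD values were 8.01, 7.69 and 5.95 in females and 8.47, 10.7 and 8.90 in males. The lowest male lay just above the highest female.

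Zfp979, a zinc finger protein gene, read 0.143 to 0.271 in MRL/lpr and 15.0 to 21.1 in NOD, at least 22.4-fold higher. Of the unnamed probes, 14702 was the brightest, with 36.1, 30.9 and 26.5 in NOD females and 26.3, 20.5 and 21.1 in NOD males against 0.041 to 0.326 in MRL/lpr. Probe 17506 read 8.08 to 18.4 in NOD and 0.441 to 0.751 in MRL/lpr. Probe 6541 read 5.61 to 8.82 in NOD and 0.150 to 0.394 in MRL/lpr. No second readout of these 4 probes was analysed here.

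Several probes fell just outside the rule. The lowest NOD value was 3.42 for Klra8, 3.45 for Styk1, 3.45 for Gpbp1l1 and 3.22 for Zfp472, with MRL/lpr values below 1. Unnamed probes 6805 and 23001 had lowest NOD values of 3.54 and 3.27. Sh3bp4 was left out by its highest MRL/lpr value of 1.198, with a lowest NOD value of 8.94. The values just inside, 4.15 and 0.991 for Mbtd1, differ little from these, so the list ends at no natural gap. One further CodeLink probe names a gene of the set: probe 30248 of Slc17a2 was not above background in any of the 12 arrays (0.0964 to 0.724 in NOD, 0.239 to 0.436 in MRL/lpr).

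By the methods of the study, the Affymetrix arrays read the same RNA pools with other oligonucleotides. This allowed a test that the rule had not used. Arrays of the same number correlated only weakly between the platforms (0.015 to 0.304). Of the 9 named genes, 8 had probe sets there, 14 in all, and 11 of these for 7 genes passed the filter on low signals. With limma across all probe sets, 1 of the 7 genes, H2-Ab1, was higher in NOD, 0 were higher in MRL/lpr and 6 did not pass, by the brightest set of each gene and averaged over the sexes. Over all 16224 probe sets tested, 4.44% were higher in NOD and 5.17% higher in MRL/lpr. The median log2 difference of the 7 genes was 0.05, against 0.01 over all probe sets. For the 6 genes that did not pass, the log2 differences ran from -0.47 to 0.42, and the 95% intervals reached no higher than 0.78, which is 1.71-fold. Their lower bounds on CodeLink, or the ratio of means for Mbtd1, were between 9.27-fold and 58.4-fold. The upper end was H2-Bl, whose Affymetrix set exceeded a signal of 100 in only 5 of 12 arrays. So dim a set cannot bound the fold of its gene. Without H2-Bl the CodeLink values ended at 18.7-fold (Mrpl27). Within females, Mrpl27 was higher in NOD, H2-Ab1 was higher in MRL/lpr and 5 genes did not pass, beside 3.8% and 5.95% of all probe sets. Within males, H2-Ab1 was higher in NOD and 6 did not pass, beside 6.68% higher in NOD and 5.94% higher in MRL/lpr. The intervals of the averaged difference, which are not adjusted for the number of tests, lay above 0 for Mrpl27 (0.12 to 0.63) and 1110059E24Rik (0.07 to 0.78).

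**Figure D2:**
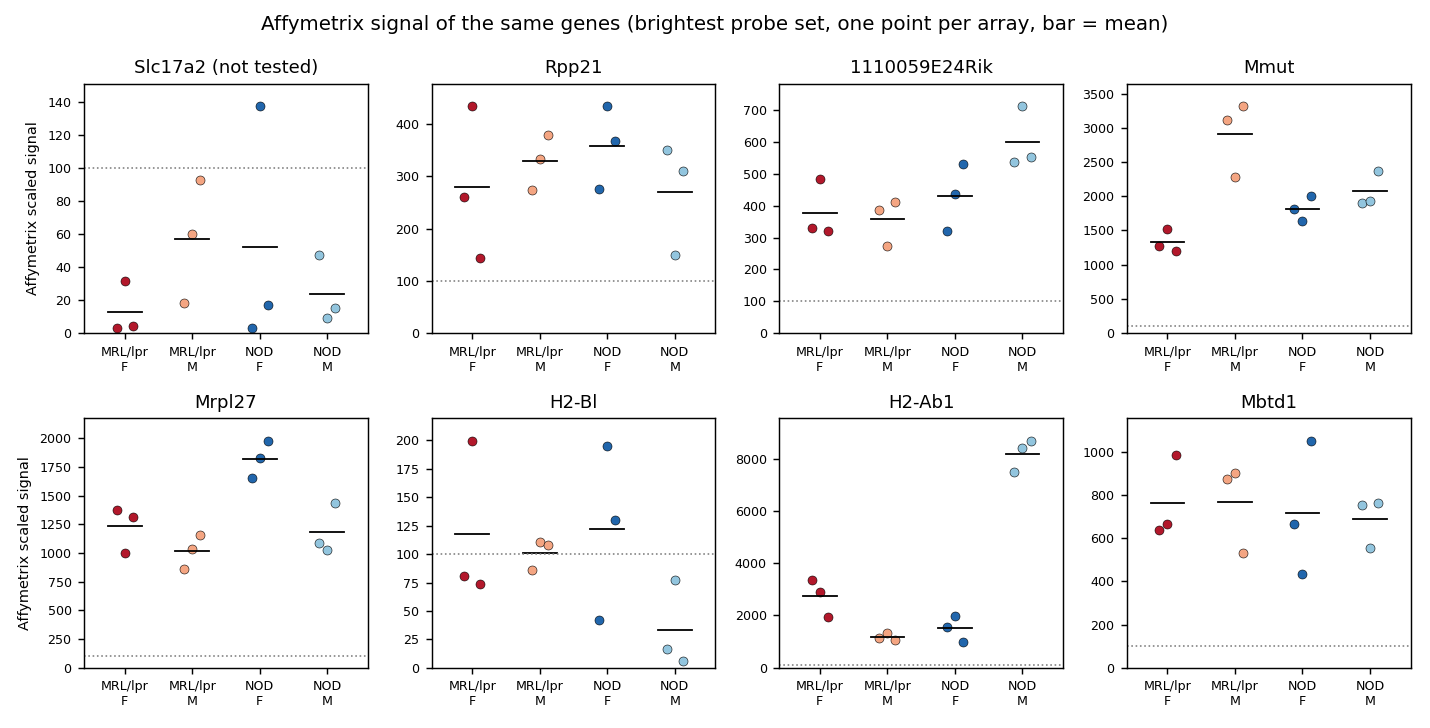
Affymetrix signal, scaled to a trimmed mean of 500 in each array, of the brightest probe set of the 8 genes, with 1 point for each array, a bar at the mean of 3 pools and a dotted line at 100. Rpp21, 1110059E24Rik, Mmut, Mrpl27, H2-Ab1 and Mbtd1 lie above 100 in all 12 arrays of both strains, whereas Slc17a2 and H2-Bl lie around or below it.

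Of the 7 genes tested, 6 had a brightest probe set above a scaled signal of 100 in all 12 arrays, MRL/lpr included. Mmut (1448486_at) read 1278, 1517 and 1206 in the female and 3121, 2288 and 3317 in the male pools of MRL/lpr. Its NOD signals were 1817, 1635 and 2002 in females and 1906, 1938 and 2377 in males. The MRL/lpr males were the highest group, and the strain difference was -0.02 ± 0.11 (log2, SE, adjusted p = 0.959). This average joined opposite values, 0.43 ± 0.16 in females and -0.47 ± 0.16 in males, neither of which passed (adjusted p = 0.0989 and 0.0604). A second set of Mmut, 1416838_at, disagreed: it read 1377 to 2957 in MRL/lpr and 1214 to 1559 in NOD, lower in NOD by a log2 difference of -0.60 ± 0.11 (adjusted p = 6.0e-04). Neither Mmut set was higher in NOD.

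Mbtd1 (1448641_at) read 638, 665 and 987 in the female and 874, 903 and 533 in the male pools of MRL/lpr. In NOD it read 668, 436 and 1050 in females and 752, 554 and 763 in males. All 4 groups overlapped, with a strain difference of -0.13 ± 0.18 (adjusted p = 0.749), and its dimmer set differed by 0.30 ± 0.24 (adjusted p = 0.512). Rpp21 (1449021_at) also overlapped in all groups, at 261, 434 and 143 (females) and 274, 333 and 380 (males) in MRL/lpr. The corresponding NOD signals were 276, 434 and 367 and 350, 150 and 310. Its strain difference was 0.05 ± 0.23 (adjusted p = 0.936).

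For Mrpl27 and 1110059E24Rik the NOD means were the higher ones. Mrpl27 (1415690_at) read 1378, 999 and 1317 in the female and 861, 1032 and 1155 in the male pools of MRL/lpr. Its NOD signals were 1650, 1828 and 1976 in females and 1088, 1023 and 1435 in males. Its strain difference of 0.38 ± 0.12 just missed the threshold (adjusted p = 0.0558). In females NOD was higher by 0.55 ± 0.17 (adjusted p = 0.0469), and in males the difference was 0.20 ± 0.17 (adjusted p = 0.535). Without MRL/lpr female pool 3 or MRL/lpr male pool 3 the average passed (adjusted p = 0.0404 and 0.0469). The NOD females stood apart from the other groups, which overlapped. 1110059E24Rik (1416841_at) read 331, 483 and 321 in the female and 386, 275 and 414 in the male pools of MRL/lpr. Its NOD signals were 321, 438 and 531 in females and 539, 713 and 554 in males. The NOD males lay above the other groups, which overlapped. The strain difference was 0.42 ± 0.17 (adjusted p = 0.137).

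H2-Bl and Slc17a2 were dim on Affymetrix. The H2-Bl set (1450531_at) read 80.5, 199.5 and 74.0 in the female and 85.9, 110.5 and 108 in the male pools of MRL/lpr. Its NOD signals were 42.2, 195 and 130 in females and 16.8, 77.4 and 6.0 in males. Only 5 of the 12 signals exceeded 100, and the strain difference was -0.47 ± 0.33 (adjusted p = 0.453). The group that was brightest on CodeLink, the NOD males, was thus the dimmest on this set. The Slc17a2 sets reached 137 at most and exceeded 100 in 1 of their 24 readings, so no comparison was possible.

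**Figure D3:**
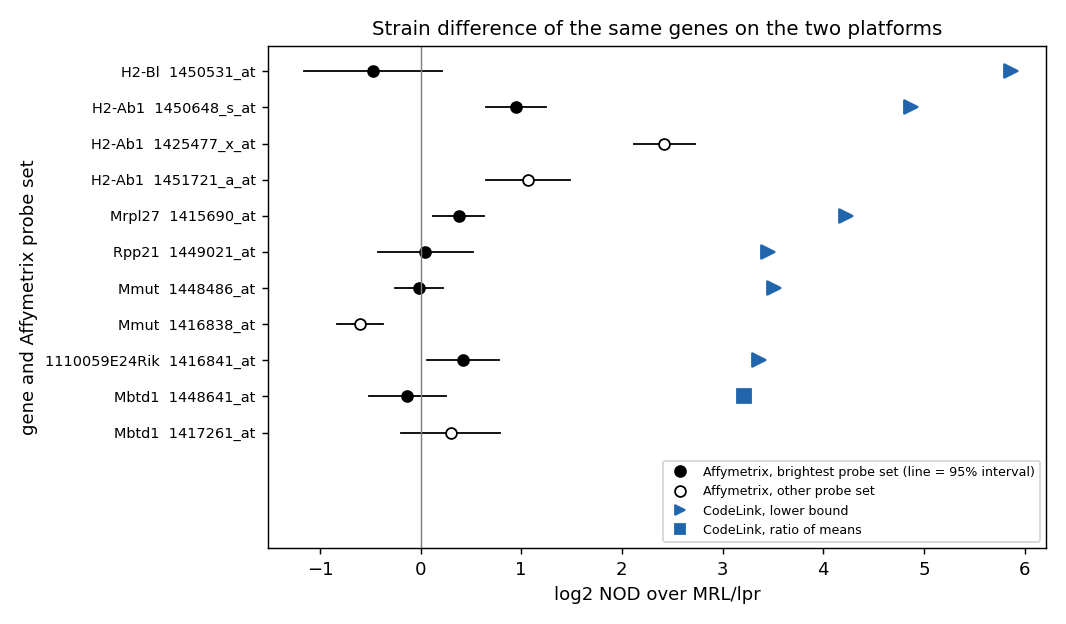
Strain difference, NOD over MRL/lpr on a log2 scale, of the 11 Affymetrix probe sets tested (circles, with 95% intervals from limma) beside the lower bound on CodeLink for the same gene (triangles; a square for Mbtd1, whose value is a ratio of means). All circles lie left of the CodeLink marker of their gene, and only the H2-Ab1 sets passed the adjusted test with NOD higher. The H2-Bl set was dim, so its interval does not bound the fold of that gene.

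For H2-Ab1 the Affymetrix signal also differed between the strains, and the difference depended on sex. The brightest set, 1450648_s_at, read 3339, 2903 and 1939 in the female and 1127, 1331 and 1053 in the male pools of MRL/lpr. In NOD it read 1542, 1989 and 982 in females and 7499, 8385 and 8667 in males. MRL/lpr glands thus gave a strong signal in all 6 arrays, where the CodeLink probe gave none above background. Averaged over the sexes, the log2 strain difference was 0.95 ± 0.14 (adjusted p = 7.0e-05). By a t-test as in the methods, but adjusted and with the sexes of a strain pooled here, it did not pass (1.29, adjusted p = 0.456). The study used that t-test between the sexes of a strain, without adjustment. In males NOD was higher by 2.76 ± 0.20 (adjusted p = 1.5e-09), and in females NOD was lower, at -0.86 ± 0.20 (adjusted p = 0.0075).

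The other sets of H2-Ab1 differed in size. Set 1451721_a_at followed the same order, with -1.20 ± 0.29 in females (adjusted p = 0.0074) and 3.34 ± 0.29 in males (adjusted p = 1.7e-08). Set 1425477_x_at was dimmer in MRL/lpr, at 376 to 595 in females and 260 to 367 in males, whereas in NOD it read 486 to 886 in females and 6546 to 7314 in males. Its strain difference was the largest of the 3 sets, 2.42 ± 0.15 (adjusted p = 3.4e-11), and in females it was 0.57 ± 0.21 (adjusted p = 0.0944). The suffixes x and s mark sets whose oligonucleotides can also match related transcripts. In females, therefore, the CodeLink probe placed NOD above MRL/lpr in every array, while 2 of the 3 Affymetrix sets placed NOD below.

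**Figure D4:**
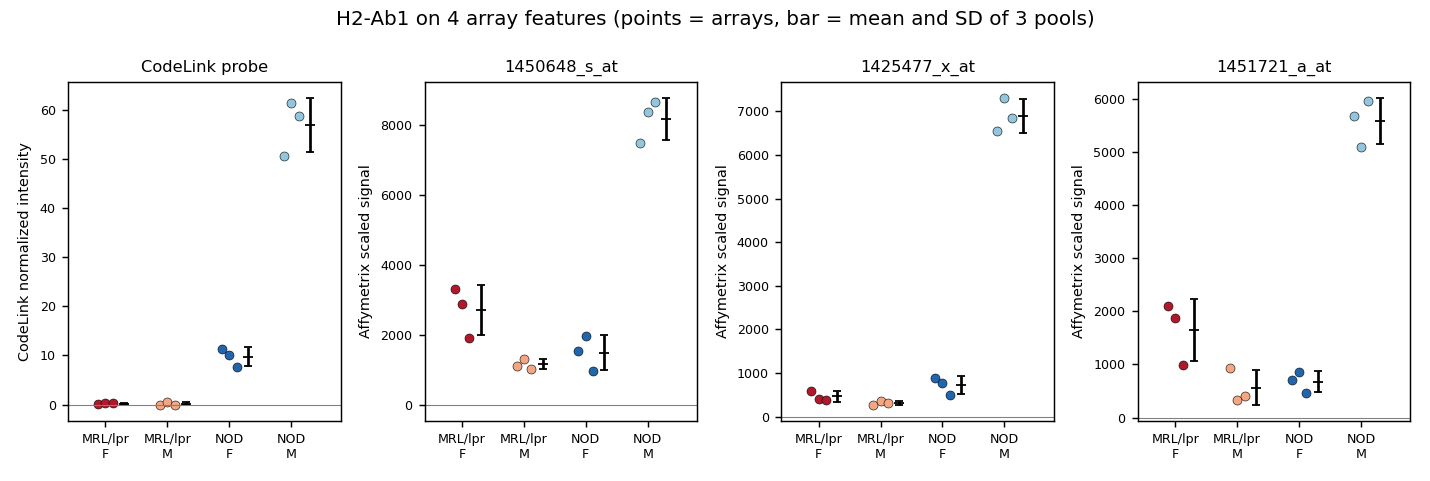
H2-Ab1 on the CodeLink probe (normalized intensity) and on 3 Affymetrix probe sets (scaled signal), with 1 point for each array and the mean ± SD of 3 pools at its side. NOD males are highest on all 4 features, while the MRL/lpr arrays lie at 0 on CodeLink and between 1053 and 3339 on the brightest Affymetrix set.

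The genes around H2-Ab1 in the antigen presentation pathway give the context. From a list of 12 MHC class II genes, 8 beside H2-Ab1 were tested on CodeLink: 4 were higher in NOD, 0 were higher in MRL/lpr and 4 did not pass, with a median log2 difference of 0.42. Over all 13105 CodeLink probes tested, 18.4% were higher in NOD, 9.76% were higher in MRL/lpr and the median difference was 0.07. These averages joined opposite directions. In females 7 of the 8 were higher in MRL/lpr and 1, H2-DMb2, was higher in NOD (8.16% and 15.1% of all probes), with a median of -0.94. The female H2-DMb2 values were -0.033 to 0.196 in MRL/lpr and 0.345 to 0.395 in NOD. These lay below the lowest value of any spot marked good (0.574 in MRL/lpr, 0.806 in NOD). In males 7 of the 8 were higher in NOD and 0 in MRL/lpr (15.1% and 10.3%), with a median of 1.98. H2-Aa, the alpha chain that pairs with H2-Ab1, was bright in both strains, at 30.8 to 126 in MRL/lpr and 40.0 to 237 in NOD. H2-Eb1 and the invariant chain gene Cd74 were bright in both as well, at 20.8 to 84.9 and 51.4 to 115 in MRL/lpr. No other measured class II gene was at background in MRL/lpr and above 4 throughout NOD: H2-DMb2, which helps load peptides, came nearest, at -0.033 to 0.201 in MRL/lpr and 0.345 to 4.82 in NOD. On Affymetrix, 2 of the 8 other class II genes tested were higher in NOD and 1, H2-Ea, was higher in MRL/lpr (median 0.38). The shares over all probe sets were 4.44% and 5.17%. In females 5 of these 8 were higher in MRL/lpr (5.95% of all probe sets), with a median of -1.16. In males 6 were higher in NOD (6.68%), with a median of 1.94.

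Class I genes behaved unevenly. Of 20 genes listed for class I presentation, 10 were tested on CodeLink. Of these, 3 were higher in NOD and 3 higher in MRL/lpr (18.4% and 9.76% of all probes), with a median of -0.14. In females 7 were higher in MRL/lpr and 1 in NOD (8.16% and 15.1% of all probes), and in males 1 and 5 (10.3% and 15.1%). H2-T10 came close to the rule, at 0.382 to 1.54 in MRL/lpr and 6.11 to 32.7 in NOD. H2-T23 was its mirror image, at 27.4 to 71.5 in MRL/lpr and -0.036 to 0.631 in NOD. On Affymetrix 10 of the listed genes were tested: 2 were higher in NOD, 2 were higher in MRL/lpr and 6 did not pass (median -0.28). In females 1 was higher in NOD and 5 in MRL/lpr, and in males 5 and 0. The largest difference was that of the set for the classical class I gene H2-D1, 4.76 ± 0.14 (log2, adjusted p = 2.3e-17). This set read 267 to 1078 in MRL/lpr and 8940 to 36079 in NOD. It is an x set, so its oligonucleotides can also match related transcripts. H2-D1 is a close relative of H2-Bl and its symbol is among the RefSeq synonyms of H2-Bl, and whether the CodeLink probe named H2-Bl and this set read the same transcripts was not tested. B2m, the invariant class I subunit, was bright in all arrays of both strains, at 304 to 511 in MRL/lpr and 124 to 703 in NOD on CodeLink. Of the 12 gene lists, the other 11 beside class II held no gene of the set. The class I list was written without H2-Bl, a class I-like locus, so its lack of a member says nothing about that family.

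The 9 named genes lay on 5 chromosomes in the mouse assembly GRCm38.p6. Chromosome 17 held 4 of them (H2-Ab1, H2-Bl, Rpp21 and Mmut), 44.4% against 4.86% of the 10956 genes with a CodeLink probe and a position. Chromosome 11 held Mbtd1 and Mrpl27, 22.2% against 8.15%. Zfp979 was on chromosome 4, Slc17a2 on chromosome 13 and 1110059E24Rik on chromosome 19. On chromosome 17 the starts of H2-Bl and Rpp21 lay 175.6 kb apart, within the MHC. H2-Ab1 lay 1816.9 kb from H2-Bl, also in the MHC, and Mmut 4679 kb beyond Rpp21, outside it. On chromosome 11, Mbtd1 and Mrpl27 started 767.9 kb apart. Within 1 Mb the genes thus formed 2 pairs. These counts rest on 9 genes and were not tested.

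The genes next to those of the set differed in both directions. Within 1 Mb of H2-Ab1, 60 other genes were tested on CodeLink, of which 13 (21.7%) were higher in NOD and 9 (15%) higher in MRL/lpr. Within 1 Mb of H2-Bl, 7 of 35 were higher in NOD and 6 higher in MRL/lpr, and for Rpp21, whose window overlaps that of H2-Bl, 6 and 4 of 28. Large differences ran in both directions there: D17H6S56E-5, near H2-Ab1, was lower in NOD by a log2 difference of -5.04 on CodeLink (adjusted p = 1.8e-10) and -4.28 on Affymetrix (adjusted p = 5.9e-13). Around Mrpl27, 6 of 22 genes were higher in NOD and 0 in MRL/lpr, and around Mbtd1, 3 of 11 and 0. Of these, Nme2 had the largest difference on CodeLink, 1.19 (adjusted p = 3.8e-06). On Affymetrix its difference was 0.34 and did not pass (adjusted p = 0.0574). The windows of Slc17a2, Zfp979, Mmut and 1110059E24Rik held 14, 12, 4 and 4 tested genes, of which 3, 2, 2 and 0 were higher in NOD and 2, 1, 0 and 0 in MRL/lpr. The shares around H2-Ab1, H2-Bl and Rpp21 were 20% to 21.7% higher in NOD and 14.3% to 17.1% higher in MRL/lpr, and those around Mrpl27 and Mbtd1 27.3% and 0%, beside 18.4% and 9.76% of all probes. On Affymetrix, 4.44% of all probe sets were higher in NOD and 5.17% higher in MRL/lpr. Around Mrpl27, 4 of 21 genes (19%) were higher in NOD and 1 (4.8%) in MRL/lpr. These counts were 3 (10.7%) and 1 (3.6%) of 28 around Rpp21, and 7 (8.6%) and 6 (7.4%) of 81 around H2-Ab1. They were 3 (7.7%) and 1 (2.6%) of 39 around H2-Bl, and 2 (13.3%) and 1 (6.7%) of 15 around Slc17a2. Around Mbtd1 they were 1 and 1 of 10, and around Zfp979 1 and 0 of 14. Around 1110059E24Rik they were 0 and 1 of 4, and around Mmut 0 and 0 of 2. Genes were counted by their brightest feature, whereas the shares of all probes and probe sets count every feature. The windows overlap within each pair, and the shares were not tested.

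**Figure D5:**
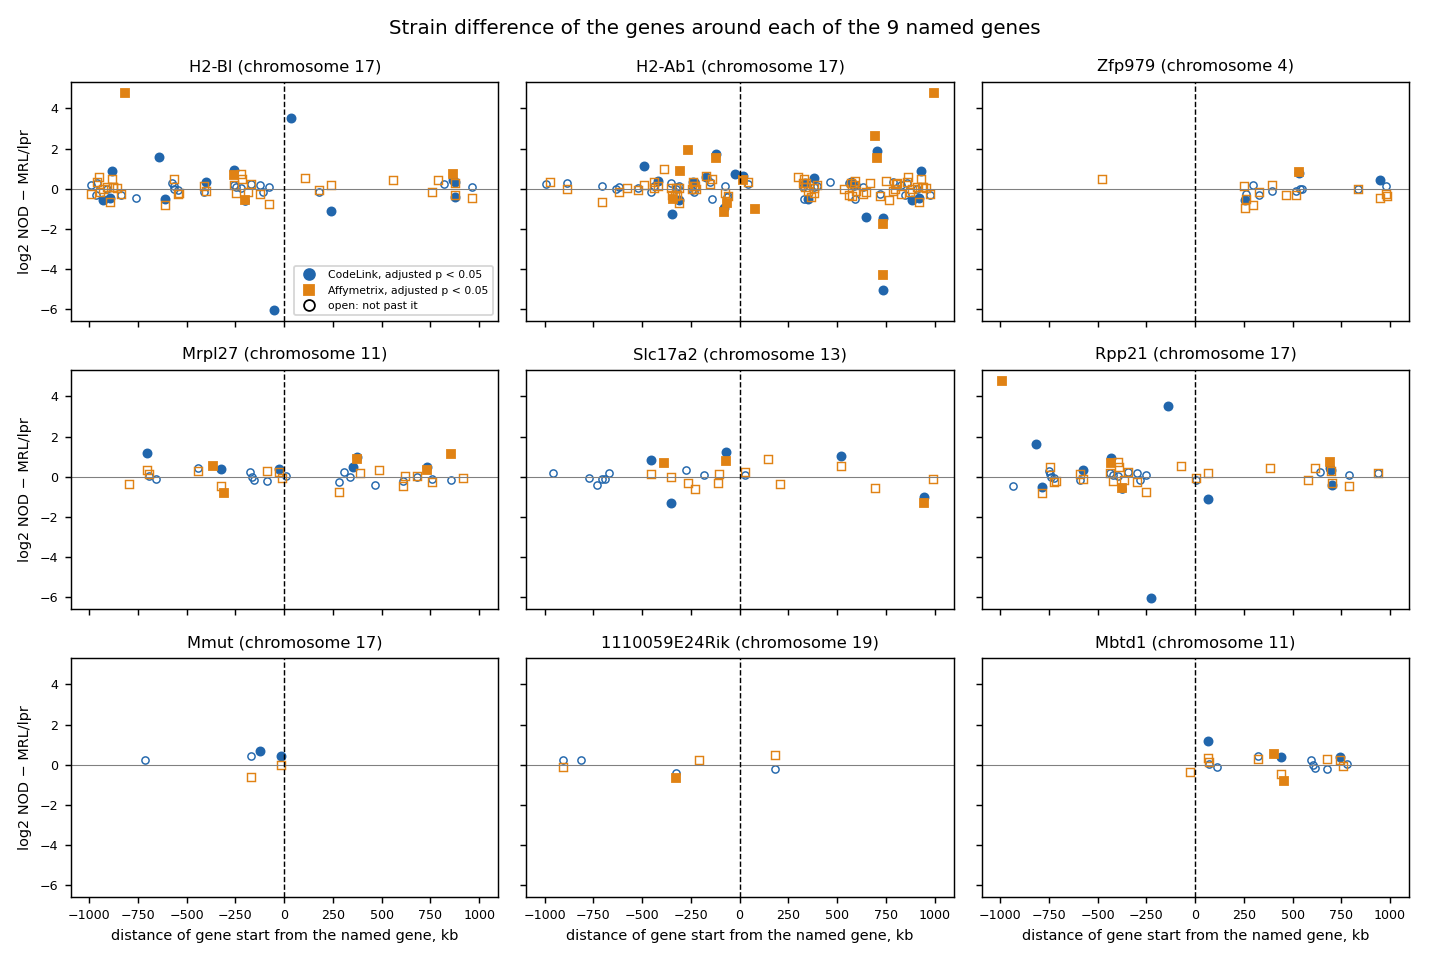
Log2 strain difference, NOD minus MRL/lpr, of genes whose start lay within 1000 kb of each of the 9 named genes, plotted by distance; circles are CodeLink probes, squares Affymetrix probe sets, and filled symbols passed an adjusted p of 0.05. Most neighbours lie near 0, and the large values around H2-Ab1, H2-Bl and Rpp21 run both ways. They extend from -6.02 for H2-T23 to 4.76 for H2-D1, which was read by an x set.

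The rule did not compare the sexes, and within NOD sex was tested for all 12 probes. The rule asked for a value above 4 in both sexes, however, so that probes low in either sex were left out. The spread in the test came from all 12 arrays, including the MRL/lpr arrays that the rule held below 1. The counts and adjusted p-values are therefore a description of these 12 probes. On CodeLink, 3 were higher in females, 3 higher in males and 6 did not pass, with a median log2 difference (female minus male) of 0.10. Over all probes, 21.4% were higher in females and 12% higher in males, with a median of 0.13. The largest differences were those of the MHC probes. H2-Bl was 6.44-fold higher in NOD males (log2 -2.65 ± 0.17, adjusted p = 1.9e-07) and H2-Ab1 5.87-fold higher (-2.51 ± 0.25, adjusted p = 6.3e-06). Slc17a2 was 1.74-fold higher in males (-0.75 ± 0.16, adjusted p = 0.0031). The methods' t-test, with an adjustment that the study did not use, did not make this call (adjusted p = 0.0698).

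Mbtd1 was 1.97-fold higher in NOD females (0.90 ± 0.15, adjusted p = 5.7e-04). Rpp21 was 1.34-fold higher (0.40 ± 0.12, adjusted p = 0.0239) and probe 14702 was 1.37-fold higher (0.45 ± 0.16, adjusted p = 0.0424), and these last differences were fragile. That of Rpp21 lost its call without NOD female pool 2, NOD male pool 1 or NOD male pool 3 (adjusted p = 0.0620, 0.0686 and 0.0573). That of probe 14702 lost its call without any 1 of 7 pools: MRL/lpr female 1 and MRL/lpr male 2 and 3 (adjusted p = 0.0530, 0.0504 and 0.0546), NOD female 1 and 2 (0.140 and 0.0826) and NOD male 2 and 3 (0.123 and 0.116). No sex difference was read in MRL/lpr on CodeLink, where the probes lay at background.

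On Affymetrix, H2-Ab1 was 5.44-fold higher in NOD males (log2 -2.46 ± 0.20, adjusted p = 6.3e-09) and Mrpl27 was 1.54-fold higher in NOD females (0.61 ± 0.17, adjusted p = 0.0189). The other 5 genes did not pass, beside 6.59% of all probe sets higher in females and 8.19% higher in males. H2-Ab1 was thus higher in NOD males on both platforms, whereas the female excess of Mbtd1 on CodeLink stood beside an Affymetrix difference of -0.01 ± 0.26 (95% interval -0.55 to 0.53). The Mrpl27 difference was 0.02 (adjusted p = 0.958) with the signals as deposited, before scaling. Its call was also lost without NOD female pool 3, NOD male pool 1 or NOD male pool 2 (adjusted p = 0.0804, 0.0783 and 0.103).

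In MRL/lpr glands, which the Affymetrix sets did read, H2-Ab1 was 2.33-fold higher in females (1.16 ± 0.20, adjusted p = 3.6e-04). Mmut was 2.18-fold higher in males (-1.09 ± 0.16, adjusted p = 4.7e-05). The other 5 genes did not pass. Over all probe sets, 6.76% were higher in MRL/lpr females and 5.94% higher in MRL/lpr males. By the brightest sets, the sex difference itself differed between the strains for these same genes, as it did for 10.2% of all probe sets. The differences were -3.62 ± 0.29 for H2-Ab1 (adjusted p = 4.6e-09) and 0.90 ± 0.23 for Mmut (adjusted p = 0.0105). On the second Mmut set, 1416838_at, the value was 0.54 ± 0.22 and did not pass (adjusted p = 0.133).

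Markers of infiltrating cells moved with the sex difference of the MHC genes. On CodeLink, 5 of the 6 T cell markers tested, 5 of the 8 B and plasma cell markers and 5 of the 6 macrophage markers were higher in NOD males, and 0 were higher in NOD females. Of all probes, 12% were higher in NOD males and 21.4% higher in NOD females. Their summed levels did not overlap for T cells (8.58 to 12.4 in the females, 36.8 to 39.3 in the males) or macrophages (56.3 to 80.0 and 180 to 242), and came close for B and plasma cells (319 to 365 and 370 to 381). All 9 class II genes tested on CodeLink were higher in NOD males, with a median of -2.16. Between the strains, the T cell and macrophage sums separated within each sex in opposite directions. For T cells they were 23.9 to 30.9 in MRL/lpr females, above NOD females, and 14.2 to 16.4 in MRL/lpr males, below NOD males. For macrophages they were 136 to 171 and 48.9 to 77.0. Most markers of acinar cells that passed ran the other way by sex. On CodeLink, 4 of the 10 listed were tested, with 3 higher in NOD females and 0 in NOD males. Their sums, 545 to 798 and 103 to 123, were mostly Car6 (474 to 741 and 65.4 to 88.2). On Affymetrix 7 were tested, with 3 higher in NOD females, 1 higher in NOD males and 3 that did not pass. The part of any of these cells in the values of H2-Ab1 and H2-Bl was not tested, and in whole glands more cells of a type and more RNA per cell cannot be told apart.

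Between 38.8% and 50.2% of CodeLink spots were not above background in MRL/lpr, and between 45.9% and 56.2% in NOD, so the NOD arrays were not brighter as a whole. The lacrimal markers Car6 and Aqp5 were well above background in all arrays. Fas, the gene mutated in MRL/lpr, read 0.250 to 0.389 there and 0.424 to 2.38 in NOD on CodeLink. Salivary gland markers, summed, ranged from 46.9 to 4142 among NOD female pools and from 1.92 to 1109 among MRL/lpr female pools, and stayed at 7.83 or below in males. Among the NOD females, the widest of the 12 probes, 17506, ran from 8.08 to 18.4.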

How the data were processed

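RNA pools from lacrimal glands were read on CodeLink and Affymetrix arrays (12 each, 4 groups of 3). The CodeLink values deposited by the authors are intensities after local background subtraction, divided by a factor per array, and were used as deposited. The Affymetrix values deposited by the authors are signals on a linear scale, named GCOS in the submitters' processing notes. Their trimmed means differed between arrays (26.7 to 73.6), so each array was scaled here to a trimmed mean of 500, leaving out 2% at each end. The genome build is not given in the sources used here. Gene names came from the platform annotation and RefSeq (GRCm38.p6, whose coordinates are not printed).

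Fits used limma 3.58.1 in R 4.3.3 on log2(value + 0.5) for CodeLink and log2(signal + 50) for Affymetrix, with an intensity trend, all 12 arrays of a platform, and Benjamini-Hochberg adjustment over all features tested (threshold 0.05). Log2 differences are on these scales, ± is the SE, and folds are ratios of group means. A feature was tested if above 0.5 (CodeLink) or 100 (Affymetrix) in at least 3 arrays, leaving 13105 probes and 16224 probe sets. A gene with several probe sets is represented by the brightest. The scripts were tested on simulated data. The number of arrays, 3 per group, limits the precision. Pools of the same strain and sex are the replicates, and p-values measure the spread between them. By the methods both platforms read the same samples. Of the 12 CodeLink arrays, 12 correlated best with the Affymetrix array of their own number, and 11 of 12 in the reverse direction, by weak correlations (0.015 to 0.304).

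The probes and gene lists were chosen with earlier results of these data known. All named genes are given. Values per array are given for genes with a tested probe set, for genes within 1 Mb of another and for those that passed the sex test. Alternatives were other thresholds, normalizations, pseudocounts, filters, the methods' t-test, a replicate block and leaving out each array. The methods' t-test was adjusted here, unlike in the study, and for the strain difference it pooled the sexes. Windows of 1 Mb were added after the probes had been seen. In the array files, 2847 spots that the value table does not list were not used.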

Additional observations from a re-analysis of the deposited data

Results flagged for a closer look

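The sex difference of H2-Ab1 on Affymetrix differed between the strains by a log2 value of -3.615 (NOD female minus male, less the same in MRL/lpr), by a limma test of the interaction. H2-Ab1 was higher in all 3 NOD males than in any NOD female, and higher in all 3 MRL/lpr females than in any MRL/lpr male. The corresponding value for Mmut was 0.903 on its brightest set, where the MRL/lpr males lay above the MRL/lpr females and the NOD sexes overlapped. Its second set, 1416838_at, gave 0.541 and did not pass the same test (adjusted p = 0.133). The cause of either difference was not tested.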

How the results depend on the processing

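The number of probes that met the rule was 6 with limits of 4 and 0.5, 22 with 2 and 1, and 5 with 8 and 1, and 12 to 13 when an array was left out. Quantile normalization of CodeLink kept the same 12 probes. With a distance of 0.5 Mb instead of 1 Mb there was 1 group of neighbouring genes instead of 2.

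On Affymetrix, the number of genes higher in NOD was 2 with quantile normalization, with the mean over probe sets and with the replicate block, since Mrpl27 then passed (adjusted p = 0.0446, 0.0420 and 0.0395), 0 by the methods' t-test after adjustment, which lost H2-Ab1 (1.292, adjusted p = 0.456), and 1 to 2 when an array was left out. With the mean over probe sets, 1 gene, Mmut, was higher in MRL/lpr (adjusted p = 0.0360), and leaving out an array gave 0 throughout. Of the strain differences near 0, that of Mmut turned to 0.043 with the signals as deposited and 0.010 with quantile normalization, and that of Mbtd1 to 0.085 with the mean over probe sets. With the signals as deposited, Rpp21, 1110059E24Rik, H2-Bl and Mbtd1 fell below the filter and gave no value. The ranges when an array was left out were -0.12 to 0.212 for Rpp21, -0.097 to 0.035 for Mmut and -0.282 to 0.013 for Mbtd1.

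For sex in NOD on CodeLink, the number of probes higher in females was 1 with quantile normalization and 1 with a pseudocount of 0.1. It was 1 to 3 when an array was left out. The number higher in males was 3 each time an array was left out. With quantile normalization it was 4, where 1110059E24Rik passed (-0.512, adjusted p = 0.0297). By the methods' t-test after adjustment it was 2, since Slc17a2 was lost. Mrpl27 turned to -0.012 with quantile normalization. The ranges were -0.046 to 0.423 for Mmut, -0.053 to 0.516 for probe 17506 and -0.151 to 0.154 for probe 6541.

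On Affymetrix, the number higher in NOD females was 0 with the signals as deposited (Mrpl27 0.021), without the intensity trend and by the methods' t-test after adjustment, and 0 to 1 when an array was left out, while 1 was higher in males each time. Mbtd1 turned to 0.004 with quantile normalization, 0.055 by the methods' t-test and 0.109 with the mean over probe sets, and ranged from -0.311 to 0.279 when an array was left out. The cause of these changes was not tested.

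Deviations of same-numbered samples in different groups correlated between -0.081 and 0.118 on CodeLink (over 0.1 in 4 of 18 pairs). On Affymetrix they correlated between -0.031 and 0.102 (1 of 18). Such weak values cannot show whether same-numbered pools shared a batch. Apart from the strain call of Mrpl27, the replicate block changed no call. With 3 pools a group, small differences could not be seen, and spots at background give only bounds.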
